A study of Mus musculus with 6 samples.

Results

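The single-copy trace amine-associated receptors of the mouse, Taar1, Taar2, Taar3, Taar4, Taar5, Taar6 and Taar9, were followed in the olfactory mucosa of mice that lack RTP1 and RTP2. They were taken by gene name and make up 7 of the 24661 genes quantified; the 8 Taar7 and Taar8 genes, which occur as several similar copies, were kept as a comparison. RNA-seq was performed on whole olfactory mucosa from 3 wild-type mice and 3 RTP1,2DKO mice (genotype Rtp1 -/-; Rtp2 -/-), all 21 days old and of the C57BL/6 strain by their labels, with 1 library per mouse. The mutation is constitutive: the coding regions were replaced in embryonic stem cells of mixed 129 and C57BL/6 origin, so every cell of the animal carries it, and a 129 stretch may flank the locus after backcrossing. The animals were sex-matched littermates, 2 males and 1 female in each group.

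Trace amine-associated receptors (TAARs) are G protein-coupled receptors for amines, volatile products of amino acid breakdown that are found in urine and decaying tissue. An olfactory sensory neuron that expresses a TAAR uses it in place of an odorant receptor (OR), and most such neurons lie in the dorsal epithelium. TAARs signal through the same cascade as ORs, which runs from the G protein subunit encoded by Gnal to the adenylyl cyclase Adcy3 and the cyclic nucleotide-gated channel that contains Cnga2. Taar1 to Taar4 form the group that mainly recognises primary amines, and Taar5, Taar6 and Taar9 belong with the Taar7 and Taar8 genes to the group that mainly recognises tertiary amines. RTP1 and RTP2, receptor transporting proteins, carry ORs to the cell surface.

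The 6 libraries held between 31125410 and 41636996 estimated counts, and size factors ran from 0.907 to 1.15. Rtp1 had 19839, 26518 and 12283 counts in the wild-type mice and 86, 98 and 111 in the RTP1,2DKO mice, and Rtp2 had 8214, 9968 and 6491 against 55, 30 and 52, so both genes matched the labelled genotypes. The markers of olfactory sensory neurons (Omp, Gnal, Adcy3, Cnga2, Gng13 and Stoml3) were all detected, as the labelled tissue requires. Only the separate mice of a group served as replicates. As this is bulk tissue, fewer cells of a type and less RNA per cell cannot be told apart for any value given here.

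The TAAR genes sit together on mouse chromosome 10. In the GRCm38 assembly the cluster ran from 23920356 to 24109534, held 16 annotated Taar genes and contained 0 other protein-coding genes. Taar1 (from 23920356 to 23921469), Taar2 (23938572 to 23941583), Taar3 (23949558 to 23950589), Taar4 (23960494 to 23961537) and Taar5 (23970706 to 23971719) lie on the forward strand, whereas Taar6 (23984609 to 23985646) and Taar9 (24108488 to 24109534) lie on the reverse strand. Taar2 has 2 exons and the other members have 1. The transcript models used for counting covered 999 to 1047 bases of coding sequence without untranslated regions.

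The members are distinct enough in sequence for reads to be assigned to them. Between members the coding sequences were between 57.0% (Taar2 and Taar6) and 69.9% (Taar6 and Taar9) identical. All 31-base words of Taar1 to Taar5 were unique to their gene, as were 99.9% of those of Taar9 and 95.8% of those of Taar6. Taar6 is the closest member to the multi-copy genes, with 79.4% identity to Taar8a, 79.8% to Taar8b and 80.0% to Taar8c. Its longest run shared with Taar8a, shown because reads within it cannot be assigned by sequence alone, spans 50 bases from 385 to 434 of the coding sequence:

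Taar6 and Taar8a shared run: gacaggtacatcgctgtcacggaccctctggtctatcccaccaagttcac

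A read wholly inside that run could be assigned only by the quantification model. Taar8a itself had between 0 and 6 counts in each mouse, against 48 to 178 for Taar6. Taar6 also shares runs of 31 to 41 bases with Taar7a, Taar7b, Taar7d, Taar7e, Taar7f, Taar8b and Taar8c, some of which had counts like its own (54 to 198 for Taar7f, 17 to 166 for Taar7e and 43 to 144 for Taar7a). Every estimated count of the 7 members was a whole number in all 6 mice (within 1e-06), so no fractional division of reads was seen in them.

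In wild-type mucosa the members with counts spanned about an order of magnitude. Per length, the mean level in TPM (transcript abundance corrected for length and scaled to the library) was 7.76 ± 3.21 for Taar9, 4.55 ± 1.70 for Taar6, 3.37 ± 1.03 for Taar2, 2.64 ± 2.01 for Taar4, 0.910 ± 0.578 for Taar5 and 0.740 ± 0.143 for Taar3 (SD, n = 3). Taar9 exceeded Taar6, Taar6 exceeded Taar2 and Taar4 exceeded Taar5 in 3 of 3 wild-type mice. Taar2 exceeded Taar4, and Taar5 exceeded Taar3, in 2 of 3. The TPM ranges of each of these neighbours overlapped. Taar1, which acts mainly in the brain, had 0 counts in all 6 mice, which allows at most 0.0721 to 0.0964 CPM (counts scaled to the library total) depending on the library (a limit of 3 counts, for counting error only).

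In the RTP1,2DKO mice the order at the top changed. Taar6 now led with 9.08 ± 2.27 TPM, followed by Taar9 with 6.63 ± 1.97, Taar2 with 4.37 ± 1.33, Taar4 with 3.84 ± 1.31, Taar5 with 1.92 ± 0.43 and Taar3 with 1.24 ± 0.12 (SD, n = 3). Each exceeded the next in 3 of 3 mice. Among these neighbours only the ranges of Taar4 and Taar5, and of Taar5 and Taar3, were separate; those of Taar6 and Taar9, Taar9 and Taar2, and Taar2 and Taar4 overlapped.

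**Figure D1:**
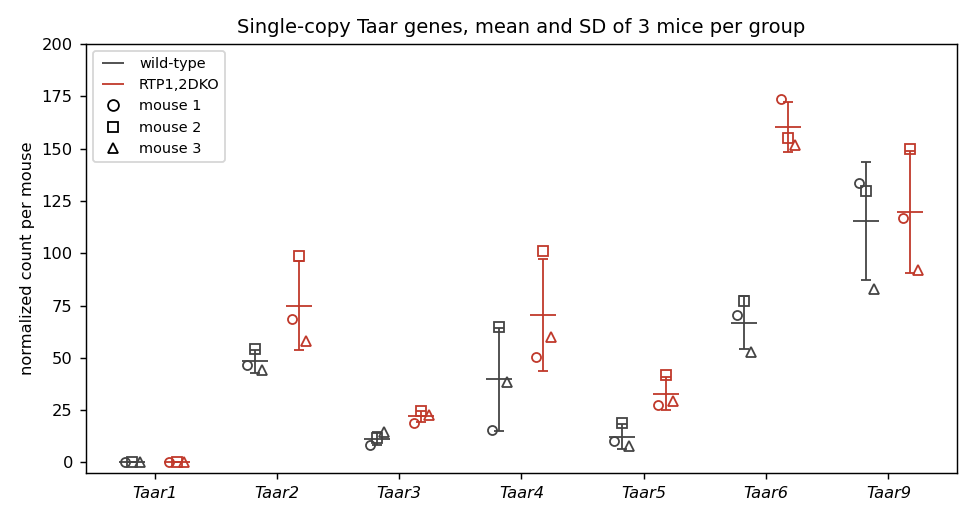
Normalized counts (estimated counts divided by the size factor of the library, linear axis) of the members in each mouse, including the undetected Taar1. Points are mice, and bars give the mean and SD of each group. The wild-type and RTP1,2DKO points are separate for Taar2, Taar3, Taar5 and Taar6 and overlap for Taar4 and Taar9.

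Between genotypes, Taar6 rose with the loss of RTP1 and RTP2, and no other detected TAAR was called in either direction. Of the 6 members tested, 1 was called higher in RTP1,2DKO mice (edgeR quasi-likelihood test, Benjamini-Hochberg adjusted over 22152 genes, threshold 0.05), where 0.46% of all genes were called higher, or 0.885% with the mouse number as a block, and 3.61% in either direction. At an unadjusted threshold of 0.05, 2 members passed, Taar5 and Taar6, against 4.58% of all genes higher at that threshold. DESeq2 called 1 member higher, and 0.98% of all genes. When size factors were taken over intact ORs, all 6 members were called higher, but so were 68.6% of all genes. No member was called lower, against 3.15% of all genes. The log2 fold change was above 0 for 6 of 6 members, as for 52.6% of all genes, and the median of the members was 0.89, against 0.016 for all genes. Normalized counts of the groups did not overlap, with the RTP1,2DKO mice higher, for Taar2, Taar3, Taar5 and Taar6, that is 4 of 6 members against 7.17% of all genes.

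Taar6 had 68, 81 and 48 counts in the wild-type mice and 165, 178 and 155 in the RTP1,2DKO mice. Every RTP1,2DKO mouse stood far above every wild-type mouse, and the spread within each genotype was small beside that gap. Normalized counts were 66.8 ± 12.5 and 160.3 ± 11.8 (SD, n = 3 each), a fold change of 2.39 with a 95% interval of 1.66 to 3.45 (log2 fold change 1.26, SE 0.24, edgeR adjusted p = 0.0095).

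Taar5, the receptor for trimethylamine, which is abundant in the urine of male mice, was among the least expressed members. It had 10, 20 and 7 counts in wild-type and 26, 48 and 30 in RTP1,2DKO mice, and the groups did not overlap. Its fitted fold change was the largest of the 6, 2.63 (95% interval 1.20 to 5.74), from normalized counts of 12.4 ± 5.95 and 32.9 ± 7.84 (SD, n = 3 each). At these counts the test across all genes did not call it (log2 fold change 1.39, SE 0.52, edgeR unadjusted p = 0.0193, adjusted p = 0.257).

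Taar9, the most abundant member in wild-type mucosa, showed no difference between genotypes that this number of mice could detect. Its counts were 129, 136 and 75 against 111, 172 and 94, and the groups overlapped. Normalized counts were 115.3 ± 28.3 and 119.7 ± 29.0 (SD, n = 3 each), a fold change of 1.04 (95% interval 0.689 to 1.56, edgeR adjusted p = 0.975). It was the only member in which 1 of the 3 same-numbered pairs of mice was lower in the mutant.

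Taar6 and Taar9, the most similar pair of members in coding sequence, thus had unlike fold changes. There were 0.527, 0.596 and 0.640 counts of Taar6 per count of Taar9 in the wild-type mice and 1.49, 1.03 and 1.65 in the RTP1,2DKO mice. Taar9 was the more abundant of the pair in each wild-type mouse and Taar6 in each mutant. The mean ratio was 0.588 ± 0.057 against 1.39 ± 0.318, or 2.37 times higher in the mutant (two-sided exact permutation test p = 0.1, the smallest that 3 mice against 3 allow). This ratio needs no size factor, since both genes come from the same library, but the pair was chosen after the values were seen.

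The sequences before these genes are shown for the members with the largest changes, Taar5 and Taar6, and for Taar9, with the least. Each holds 250 bases before and 50 bases after the annotated RefSeq start (GRCm38.p6), on the strand of the gene, at chr10:23970456-23970755 (forward) for Taar5, chr10:23985597-23985896 (reverse) for Taar6 and chr10:24109485-24109784 (reverse) for Taar9. Capitals mark the start codon, with which the annotated start coincides, so these are windows before the coding sequence and the true transcription start may lie elsewhere.

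Taar5: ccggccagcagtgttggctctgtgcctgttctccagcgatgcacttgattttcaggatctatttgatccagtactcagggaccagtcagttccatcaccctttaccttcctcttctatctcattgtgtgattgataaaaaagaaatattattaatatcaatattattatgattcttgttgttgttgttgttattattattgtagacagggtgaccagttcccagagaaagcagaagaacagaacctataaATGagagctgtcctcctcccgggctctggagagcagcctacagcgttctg

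Taar6: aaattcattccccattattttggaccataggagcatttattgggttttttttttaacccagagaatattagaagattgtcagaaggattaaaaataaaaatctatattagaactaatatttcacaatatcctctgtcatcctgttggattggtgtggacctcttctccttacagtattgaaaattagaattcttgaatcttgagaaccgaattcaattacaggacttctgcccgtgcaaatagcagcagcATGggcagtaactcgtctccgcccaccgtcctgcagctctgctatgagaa

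Taar9: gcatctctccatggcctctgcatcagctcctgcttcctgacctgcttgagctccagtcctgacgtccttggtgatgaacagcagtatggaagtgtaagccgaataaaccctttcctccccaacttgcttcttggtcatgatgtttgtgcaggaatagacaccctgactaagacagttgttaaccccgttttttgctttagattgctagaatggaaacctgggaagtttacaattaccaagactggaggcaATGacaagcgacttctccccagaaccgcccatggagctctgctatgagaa

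RefSeq held such a window for 5 of the 7 members (Taar2, Taar3, Taar5, Taar6 and Taar9). Motifs met in the promoters of olfactory genes were searched on both strands; the spellings used do not overlap each other. The Olf-1/EBF palindrome, spelled as TCCC, any 2 bases and GGGA, was in 0 of the 5 windows and in 0.904% of all 32851 RefSeq windows, and the homeodomain core TAATTA in 0 of 5 and in 5.29%. At such low shares over all windows, a search of 5 windows could hardly show a difference. No conclusion on Taar5, Taar6 and Taar9 is drawn from it.

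The primary amine receptors Taar2, Taar3 and Taar4 were also at higher mean levels in the mutant, but none passed the test. Taar2 had 45, 57 and 40 counts in wild-type and 65, 113 and 59 in RTP1,2DKO mice, without overlap. Its normalized counts were 48.3 ± 5.4 and 75.0 ± 21.1 (SD, n = 3 each), a fold change of 1.55 with an interval of 0.962 to 2.50 (edgeR adjusted p = 0.492). Taar3, which responds to isoamylamine, had 8, 12 and 13 counts against 18, 28 and 23, the lowest of the detected members, and its groups were also separate. The fold change of 1.93 had an interval of 0.837 to 4.45 at these low counts (edgeR adjusted p = 0.592).

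Taar4, the high-affinity receptor for phenylethylamine, an amine of carnivore urine, varied widely between mice of a genotype. It had 15, 68 and 35 counts in wild-type and 48, 116 and 61 in RTP1,2DKO mice. The wild-type mouse with 68 counts stood above 2 of the 3 mutants, although each mutant exceeded the wild-type mouse of the same number. Normalized counts were 39.7 ± 24.7 and 70.5 ± 26.9 (SD, n = 3 each), a fold change of 1.77 with an interval of 0.882 to 3.57 (edgeR adjusted p = 0.567). The mice numbered 2 had the highest normalized counts of Taar2, Taar4 and Taar5 in both genotypes.

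**Figure D2:**
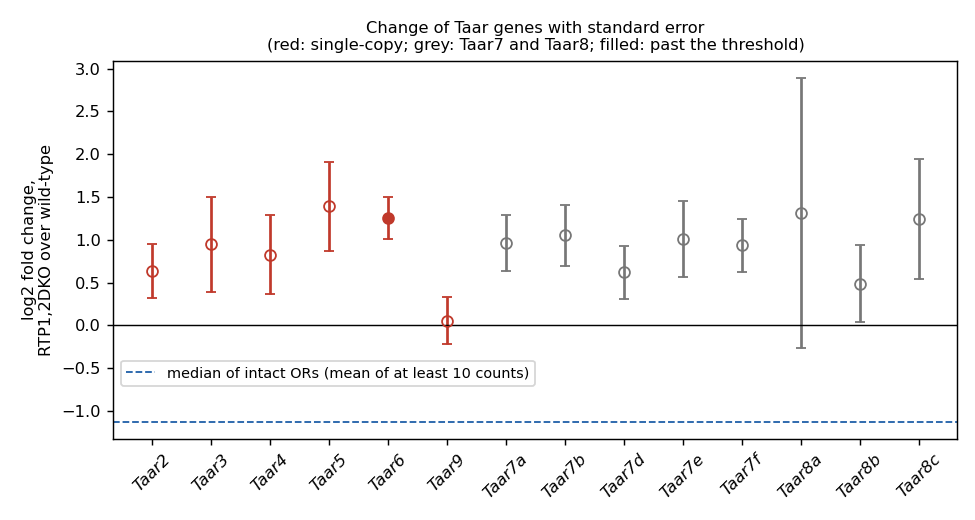
Fitted log2 fold change (RTP1,2DKO over wild-type) of each detected member and of the Taar7 and Taar8 genes, with its standard error. A dashed line marks the median of intact ORs, and filled points passed the threshold. The 95% intervals, not drawn, lie above 0 for Taar5 and Taar6. Among the comparison genes they also lie above 0 for Taar7a, Taar7b, Taar7e and Taar7f. The intervals of Taar2, Taar3, Taar4 and Taar9, and of the remaining Taar7 and Taar8 genes, include 0.

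Summed over the members, normalized counts were 284.5, 356.8 and 240.4 in the wild-type mice and 456.3, 571.2 and 413.5 in the RTP1,2DKO mice. The groups did not overlap, and the means were 293.9 ± 58.8 and 480.3 ± 81.5 (SD, n = 3 each), a ratio of 1.63, given without a test. In CPM they overlapped, with 11.2 in the highest wild-type and 11.0 in the lowest mutant mouse. Library totals include a secretory gene, Bpifb9b, whose share of a library's counts ran from 4.81% to 13.7%, and its part in that overlap was not tested.

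The division by amine class did not separate the members with larger changes from those with smaller ones. Taar2, Taar3 and Taar4 together had 99.4 ± 30.3 normalized counts in wild-type and 167.4 ± 49.1 in RTP1,2DKO mice, a ratio of 1.69. Taar5, Taar6 and Taar9 together had 194.5 ± 44.7 and 312.9 ± 37.1, a ratio of 1.61. The second group took 75.3%, 63.4% and 59.6% of the member counts in the wild-type mice and 69.7%, 60.8% and 66.1% in the RTP1,2DKO mice. These shares overlapped and their means were 66.1% ± 8.2 and 65.5% ± 4.5 (SD, n = 3 each).

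Within the tertiary amine group the shares of single receptors differed between genotypes. Taar6 made up 22.8% ± 1.7 of the member counts in wild-type and 34.0% ± 6.0 in RTP1,2DKO mice, and Taar5 4.06% ± 1.13 and 6.81% ± 0.71 (SD, n = 3 each), both without overlap. The share of Taar9 was 39.2% ± 6.7 against 24.7% ± 2.1, lower in every mutant than in every wild-type mouse while its normalized counts overlapped. The shares of Taar2, Taar3 and Taar4 overlapped between genotypes. Shares of a mouse sum to the whole and are not independent of each other.

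**Figure D3:**
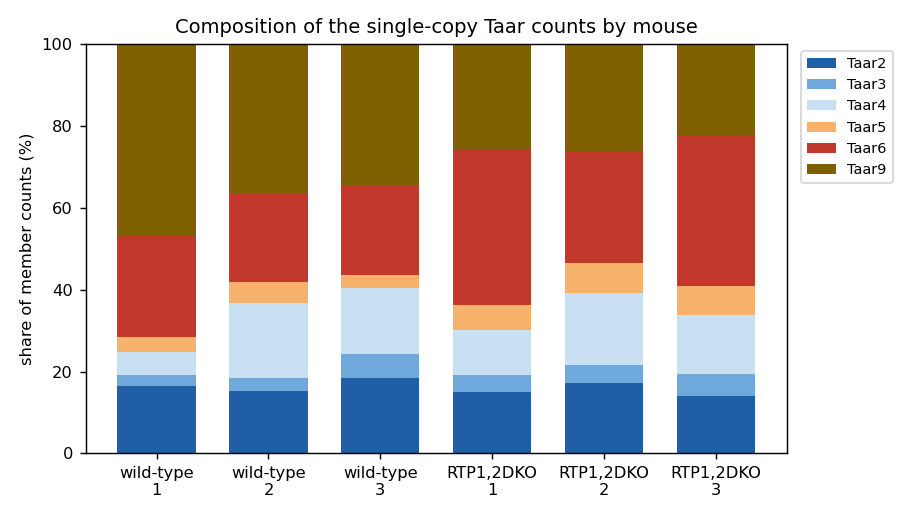
Percent of the summed member counts held by each detected member, 1 bar per mouse. The Taar6 segment is larger and the Taar9 segment smaller in each RTP1,2DKO mouse than in any wild-type mouse.

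Set against the ORs, the members stood toward the upper end. Across the 959 intact ORs whose mean normalized count reached 10, the median log2 fold change was -1.12, with 47 called higher and 411 called lower. Only 4 of these ORs had a larger log2 fold change than Taar5 and 7 a larger one than Taar6, and 35, 59 and 118 stood above Taar3, Taar4 and Taar2. Taar9 was exceeded by 255, or 26.6%. Even Taar9 lay 1.18 above the OR median on the log2 scale.

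Class I ORs, a subfamily which is likewise expressed mainly in the dorsal epithelium, gave a similar picture. Their 97 members with a mean of at least 10 normalized counts had a median log2 fold change of -0.71, with 6 called higher and 40 lower. Of these, 1 exceeded Taar6, 1 exceeded Taar5 and 36 exceeded Taar9. Over all 114 Class I ORs, also those with lower means, the median normalized count was 102.4 to 134.1 in wild-type and 48.4 to 52.9 in RTP1,2DKO mice. ORs and TAARs come from the same libraries, and no test of the difference between the families was made.

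**Figure D4:**
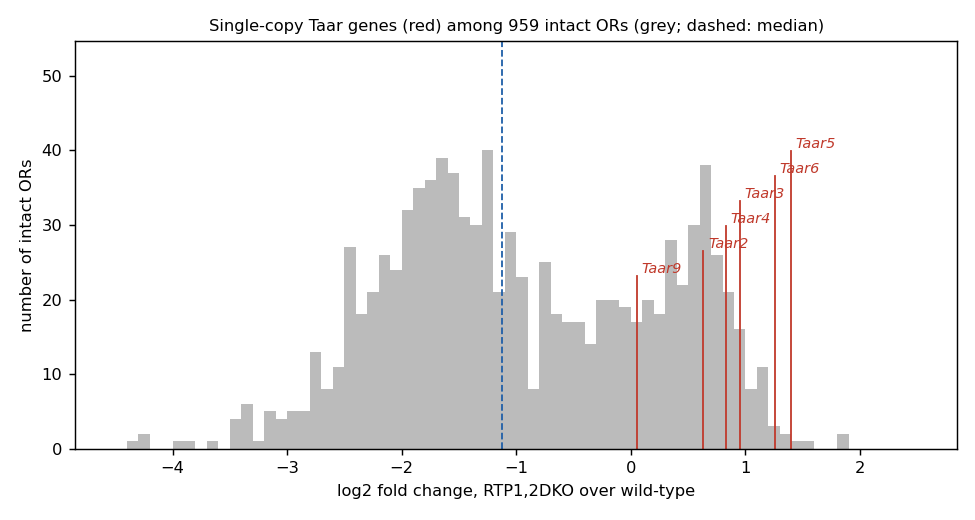
Histogram of the log2 fold change (RTP1,2DKO over wild-type) of 959 intact ORs, in number of ORs per bin, with vertical lines at the 6 detected members. All 6 lines lie to the right of the OR median of -1.12, and Taar5 and Taar6 lie where few ORs are found.

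Per count of OR transcript, the members took 0.886, 1.00 and 0.776 counts per 1000 intact OR counts in the wild-type mice. In the RTP1,2DKO mice they took 1.51, 2.18 and 1.36, and the ratio of the means was 1.90. That ratio depended on the OR Olfr907, and was 2.07 when Olfr907 was left out of the OR counts. Per 1000 counts of Omp, a protein of mature olfactory sensory neurons, the members had 4.23, 5.95 and 3.58 counts in wild-type and 16.5, 15.6 and 10.4 in mutant mice, a ratio of 3.09. On that scale Taar9 too was higher in each mutant, with 1.98, 2.16 and 1.23 against 4.23, 4.09 and 2.33. Omp itself was lower in the mutants (log2 fold change -0.90), and in normalized counts the groups overlapped for Taar9. Whether Taar9 differed between genotypes hence depended on what it was set against.

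The signalling genes that TAAR neurons share with OR neurons fell. Of 15 olfactory transduction genes tested, 11 were called lower and 0 higher, and all 15 had lower normalized counts in each mutant than in any wild-type mouse, against 9.24% of all genes. The edgeR quasi-likelihood test gave log2 fold changes of -0.90 for Omp (SE 0.15, adjusted p = 0.0030) and -0.94 for Gnal (SE 0.17, adjusted p = 0.0053). Adcy3 fell by 1.41 on the log2 scale (SE 0.13, adjusted p = 4.8e-05) and Cnga2 by 1.05 (SE 0.14, adjusted p = 0.00062). Stoml3 had 15728 ± 2103 normalized counts in wild-type and 3925 ± 931 in RTP1,2DKO mice (SD, n = 3 each) and was called lower. Also called lower were the channel subunits Cnga4 (-1.18) and Cngb1 (-1.09), the chloride channel Ano2 (-1.18), the phosphodiesterases Pde4a (-1.08) and Pde1c (-1.05) and the Gnal partner Ric8b (-0.92). The G protein subunits Gng13 and Gnb1 and the exchanger Slc24a4 did not pass after adjustment (edgeR adjusted p from 0.0508 to 0.0857). With the mouse number as a block they passed (edgeR adjusted p from 0.0288 to 0.0488), and all 15 genes were then called lower, as they were by DESeq2.

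Among other cell type markers, edgeR called only some of immature neurons and 1 of dorsal neurons. Of 4 markers of immature olfactory sensory neurons, Gng8 (log2 fold change 0.91, edgeR adjusted p = 0.0104) and Gap43 (0.58, adjusted p = 0.0418) rose and none was at 0. Dpysl3 was not called (0.40, adjusted p = 0.126), but passed with the mouse number as a block (edgeR adjusted p = 0.0497). Stmn2 was not called in either fit (0.19, edgeR adjusted p = 0.655 without the block). DESeq2 called 3 of the 4. Their summed normalized counts were 22376 to 27098 in wild-type and 30659 to 32575 in RTP1,2DKO mice. Among 6 basal cell and progenitor markers none was called, with 3 at an unadjusted p under 0.05 (among them Neurog1 and Neurod1, each higher without overlap) and 0 with DESeq2. Of all genes, 4.58% were higher at that threshold and 7.17% were higher without overlap. The 3 blood markers had log2 fold changes of 0.71 to 0.76, with 0 called by edgeR, 3 at an unadjusted p under 0.05 and 1 called by DESeq2, and their sums were 54997 to 89701 against 87555 to 159854. Of the dorsal markers Nqo1 fell (log2 fold change -0.66, edgeR adjusted p = 0.0037), and Acsm4 (-0.16) was not called, nor were the ventral markers Ncam2 (-0.16) and Nrp2 (0.01). The part of these changes in the TAAR values was not tested.

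The 8 Taar7 and Taar8 genes of the same cluster lay on the same side as the members. Their log2 fold changes were all above 0, from 0.49 to 1.31 with a median of 0.99, and 0 were called by edgeR or DESeq2, with 4 at an unadjusted p under 0.05. Taar7b and Taar7e did not overlap between genotypes. Of all genes, 52.6% lay above 0, 4.58% were higher at that unadjusted threshold and 7.17% were higher without overlap. Summed, they had 343.8 ± 47.3 normalized counts in wild-type and 640.0 ± 27.1 in RTP1,2DKO mice (SD, n = 3 each), a ratio of 1.86 beside 1.63 for the single-copy members. Reads shared among these copies make the value of each of them uncertain.

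None of the genes that flank the cluster was called. Of the 5 nearest protein-coding genes on each side, 0 of 10 were called by edgeR or DESeq2, with 2 at an unadjusted p under 0.05 (Rps12 and Moxd1). Their median log2 fold change was 0.11, from -1.16 (Vnn3, with 6 to 48 counts) to 0.37 (Rps12). Rps12 and Eya4 had separate groups, with the mutants higher, as had 7.17% of all genes. At the unadjusted threshold 4.58% of all genes were higher.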

How the data were processed

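Whole olfactory mucosa was taken from 3 wild-type and 3 RTP1,2DKO mice, and stranded RNA-seq libraries were sequenced on an Illumina HiSeq. The labels and the study's methods name different library kits. The authors quantified transcripts with kallisto (version not given in the sources used here) against UCSC mouse transcripts (mm10 in the submitters' processing notes) with extended OR models, and deposited estimated counts and TPM for each mouse. Whether strand was used in counting is not given in the sources used here.

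For the values reported, the deposited estimated counts were summed per gene, rounded, and fitted in edgeR 4.0.16 with genotype as the only term (quasi-likelihood F-test) in R 4.3.3, with median-of-ratios size factors from DESeq2 1.42.0 over all genes. All 22152 genes detected with 1 or more counts in any mouse were tested, Benjamini-Hochberg adjusted, at a threshold of 0.05. The standard error is the log2 fold change over the root of F. A normalized count is a count over the size factor. The deposited TPM values were used to order levels between genes and, as an alternative, for the share of Taar5, Taar6 and Taar9 and the ratio of Taar6 to Taar9. Counting error limits the genes with few counts, such as Taar3 and Taar5. The scripts were tested on simulated data, where the share of false calls was above the nominal rate.

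Mice of both genotypes share numbers. Deviations of same-numbered mice from the group means correlated at 0.139, 0.179 and 0.103 over 18133 genes. For mice of unlike number the values ran from -0.219 to 0.0934, so the gap was small. As the animals were also littermates, the numbers were taken to pair the mice, and a fit with that block was run as an alternative. Other alternatives were TMM, size factors over intact ORs, DESeq2, the edgeR exact test, a filter on low counts and leaving out each mouse.

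The members and all gene lists were chosen with earlier results of these data known. The text names all members, every listed gene past the threshold, Omp, Gnal, Adcy3 and Cnga2, the 5 genes most like the members over the mice, and genes of lists or neighbours chosen after their values were seen. Other listed genes are given by counts and ranges, and some are not reported here by name. Coding sequences, coordinates and neighbours came from GENCODE M21 (GRCm38), and windows before genes from RefSeq. Intact ORs exclude pseudogenes, and Class I ORs are those numbered Olfr543 to Olfr692.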

Additional observations from a re-analysis of the deposited data

How the results depend on the processing

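Taar6 was called higher in 6 of 6 fits without a mouse (log2 fold change 1.12 to 1.38, edgeR adjusted p 0.0154 to 0.0424) and in 5 of 5 other fits with size factors over all genes (1.26 to 1.27, adjusted p 0.00033 to 0.0137). The replicate block called 196 genes higher in place of 102 and, of 112 listed or named genes, lost 0 calls and added 5, all in the transduction and immature neuron lists and given with those lists. Among those 112 genes it changed no other call, while over all genes it called 816 lower in place of 697. DESeq2, which gave 3023 genes no adjusted p, called 217 higher.

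Size factors over intact ORs moved the median of all genes from 0.016 to 0.98 and that of the ORs from -1.12 to -0.16. Under them 6 members were called higher in place of 1, with 15508 genes called in all in place of 799, 15206 of them higher in place of 102 and 302 lower in place of 697. The log2 fold changes became 1.62 for Taar2, 1.92 for Taar3, 1.85 for Taar4, 2.41 for Taar5, 2.24 for Taar6 and 1.05 for Taar9, and the log2 ratio of the summed members moved from 0.71 to 1.70. Relative to the shifted median of all genes, Taar9 stayed near 0.

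Leaving out 1 mouse at a time gave 1 to 1 members called higher and 0 to 0 lower, 598 to 777 genes called, 52 to 132 higher and 533 to 686 lower. The counts of genes called higher were 52, 59 and 65 without RTP1,2DKO replicate 1, 2 and 3. The log2 ratio of the summed members was 0.57 to 0.87 and that of Taar6 to Taar9 1.10 to 1.42, beside 1.24 with all mice. The difference in the share of Taar5, Taar6 and Taar9, -0.55 points with all mice, ran from -3.78 (without wild-type replicate 3) to 4.04 (without wild-type replicate 1). Taar9 reversed to -0.14 without wild-type replicate 3 or without RTP1,2DKO replicate 2, and ranged up to 0.21. The log2 fold change was 0.38 to 0.79 for Taar2, 0.77 to 1.14 for Taar3, 0.45 to 1.39 for Taar4 and 1.15 to 1.85 for Taar5, past the threshold in none of these fits. Counts under 50 in every library limited the precision for Taar3 and Taar5.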

Other observations

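Among 18 genes of amine synthesis and breakdown, 0 were called by edgeR or DESeq2 and 1 had an unadjusted p under 0.05. Across all genes tested, 2604 of 22152 were under that threshold in either direction. The monoamine oxidases Maoa and Maob had log2 fold changes of 0.21 and 0.20. Ddc, which makes phenylethylamine from phenylalanine, was near the detection limit, with 1, 6 and 16 counts in wild-type and 8, 6 and 3 in mutant mice. Pnmt was at 0 in all mutants and at 0 to 5 counts in the wild-type mice. The median of the list was 0.05, with 11 of 18 above 0, in whole mucosa.

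Of 13 factors known from receptor gene choice, among them Lhx2, Ldb1, the Ebf genes and Emx2, 0 were called by edgeR or DESeq2 and 2 had an unadjusted p under 0.05 (Ebf2 and Ebf4, with log2 fold changes of -0.29 and -0.34). Their median was 0.08. Over all 22152 genes tested, 2604 had an unadjusted p under 0.05 in either direction. Of 10 receptor transport genes, 3 fell: the deleted Rtp1 and Rtp2 (log2 fold changes -7.70 and -7.55), and Reep1 (-0.78, edgeR adjusted p = 0.0036), which has been named as a partner of OR transport. None of the 4 sustentacular, 3 ciliated or 3 macrophage markers was called by edgeR or DESeq2, with 0, 1 and 0 at an unadjusted p under 0.05.

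Over the 6 mice, the genes outside the family whose log2 normalized counts followed the mean of the 6 detected members most closely, of 18120 candidates, were Lat2 (Pearson r = 0.998), Nfkbie (0.994), Gm12530 (0.990), Espn (0.989) and the OR Olfr1297 (0.986). Olfr1297 was called higher in RTP1,2DKO mice (log2 fold change 0.92, SE 0.18, edgeR adjusted p = 0.0096), and the other 4 were not, with log2 fold changes of 0.34 to 0.73. With 6 mice and so many candidates, high values of r arise easily, and they are given as a description.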
